A study of Mus musculus with 12 samples.

Results

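The genes described here encode the proteins of the cytosolic ribosome. They were taken as every gene whose symbol is Rps, Rpl or Rplp with a number and at most a short suffix (Rps2, Rpl13a, Rplp1), without symbols marked as pseudogenes, and with an FPKM (fragments per kilobase of transcript, scaled to library size) of at least 1 in at least 3 of the 12 libraries. The rule gave 83 of the 27503 genes in the deposited table, 33 of the small and 50 of the large subunit. Of these, 79 are annotated as protein coding and 4 as processed pseudogenes that carry a gene-like symbol (Rps3a2, Rps3a3, Rpl6l and Rpl32l). A further 4 genes fit the name but not the FPKM minimum: Rpl3l, Rpl39l and Rps4l stayed at or below 0.217 FPKM in every library, and Rps12l1 reached 1.62 FPKM. All 83 genes passed the count filter of the differential expression test.

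The libraries came from B16F10, a mouse melanoma cell line. The 4 groups of 3 libraries were IRF7-C435A mutant cells given IFNα, IRF7-C435A mutant control cells, wild-type cells given IFNα, and wild-type control cells. IRF7 is a transcription factor of the interferon response, and IFNα is a type I interferon. The labels give no dose, time, number of mutant clones or route by which the mutation was made, and nothing in them says that the replicates were grown separately. The p-values therefore speak of the spread among these libraries, which may be technical. The study asked how the IRF7 form and IFNα bear on gene expression in these cells.

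Each ribosome holds 1 copy of almost every ribosomal protein, so cells make these proteins in matched amounts. Their mRNAs are short, very abundant in dividing cells, and usually begin with a tract of pyrimidines, the 5′ TOP motif, through which mTORC1 signalling controls their translation. Ribosomal protein genes have left many processed pseudogenes in mammalian genomes, copies of the spliced mRNA whose sequence can be close to that of the gene. Several of the proteins are also known for roles away from the ribosome, among them the control of p53 and of interferon-regulated translation.

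Total counts ran from 60511573 to 75927461 per library. The 7 melanocyte marker genes summed to 7021 to 9374 CPM (counts relative to library size, scaled by the TMM factors of edgeR), and none was at 0 in any library. The 7 lung epithelium marker genes summed to 38.8 to 60.9 CPM in 8 libraries, namely mutant IFNα 3, all 3 mutant control, all 3 wild-type IFNα and wild-type control 1, and to at most 0.156 CPM in the other 4. The 5 leukocyte marker genes summed to 39.0 to 58.7 CPM in mutant IFNα, 81.6 to 92.3 CPM in mutant control, 47.4 to 74.3 CPM in wild-type IFNα and 37.1 to 73.3 CPM in wild-type control libraries, with 0 to 2 of them at 0 in each library. The 3 haemoglobin genes that mark erythroid cells summed to 0 to 8.92 CPM in mutant IFNα, 8.71 to 26.7 CPM in mutant control, 5.84 to 23.4 CPM in wild-type IFNα and 0 to 10.4 CPM in wild-type control libraries. The 5 fibroblast and endothelial marker genes summed to 26.9 to 75.5 CPM in mutant IFNα, 33.5 to 66.7 CPM in mutant control, 56.2 to 60.1 CPM in wild-type IFNα and 32.04 to 33.3 CPM in wild-type control libraries. Irf7 mRNA was 4.63, 4.69 and 7.23 FPKM in mutant IFNα libraries, 4.44 to 5.19 FPKM in mutant control, 8.45 to 9.87 FPKM in wild-type IFNα and 11.6 to 12.8 FPKM in wild-type control libraries, a level that does not check a point mutation. Isg15, a gene commonly induced by interferon, was 3469 to 3500 FPKM in mutant IFNα and 3728 to 3782 FPKM in mutant control libraries, and 2716 to 3676 FPKM in wild-type IFNα and 2503 to 3290 FPKM in wild-type control libraries. Its IFNα log2 fold change was -0.13 ± 0.161 (SE) in the mutant and 0.15 ± 0.161 in the wild type, and it passed the edgeR test in neither.

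Ribosomal protein genes were among the most abundant mRNAs of these cells. They took 19.1% to 22.3% of all FPKM in mutant IFNα libraries, 22.7% to 22.8% in mutant control, 18.6% to 21.2% in wild-type IFNα and 18.6% to 20.8% in wild-type control libraries. Of the 713 genes with a mean of at least 100 FPKM, 75 were ribosomal protein genes, and so were 39 of the top 100 genes. The median ribosomal protein gene had a mean of 780 FPKM over the 12 libraries, and the 10th and 90th percentiles were 194 and 2857 FPKM. Although most of their products enter the ribosome in equal number, the mRNA levels of the protein-coding members differed, with a 13.4-fold range of FPKM between the 10th and 90th percentiles. From the lowest of them, Rpl22l1, to the highest, Rplp1, the range was 535-fold in FPKM and 148-fold per kilobase of annotated main transcript.

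**Figure D1:**
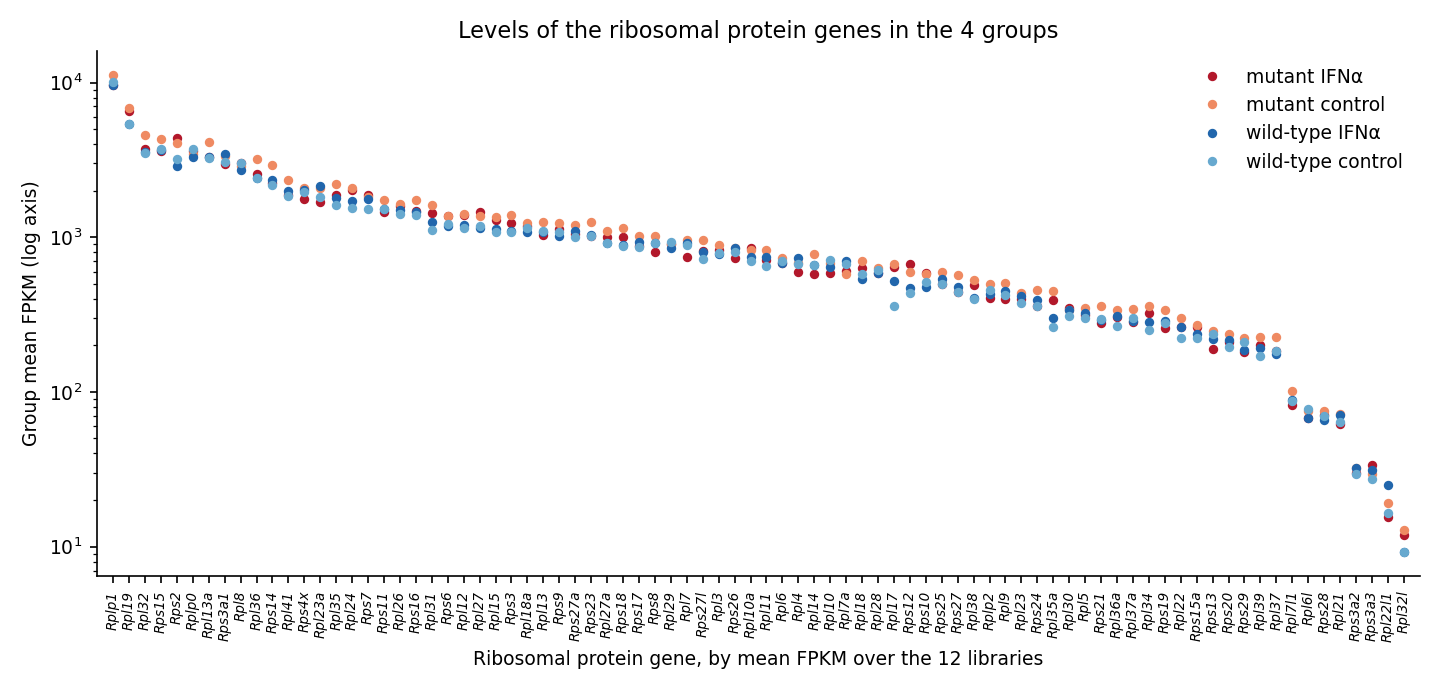
Group mean FPKM (log axis) of 82 of the 83 ribosomal protein genes, ordered by their mean over the 12 libraries, with 1 point for each of the 4 groups. Rplp1 stands highest at a mean of 10178 FPKM, and the points of the 4 groups lie close together beside the spread between genes.

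The highest levels belonged to Rplp1, an acidic protein of the ribosomal stalk that recruits elongation factors, at 9674 ± 3498 FPKM in mutant IFNα, 11249 ± 241 FPKM in mutant control, 9668 ± 1248 FPKM in wild-type IFNα and 10122 ± 1262 FPKM in wild-type control libraries (mean ± SD, n = 3 each). Rpl19 (mean of 6051 FPKM over all libraries) and Rpl32 (3829 FPKM), both of the large subunit, came next. The stalk partner Rplp2 averaged only 404 ± 90.4 FPKM in mutant IFNα, 496 ± 12.2 FPKM in mutant control, 427 ± 25.2 FPKM in wild-type IFNα and 455 ± 20.8 FPKM in wild-type control libraries. Rplp0, which anchors the stalk, stood between them. The lowest means belonged to Rpl32l (10.8 FPKM), Rpl22l1 (19.0 FPKM) and Rps3a3 (30.4 FPKM), of which only Rpl22l1 is annotated as protein coding.

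The order of the levels depends on the transcript length used. The length behind the deposited FPKM, recovered from the ratio of count to FPKM, had a median of 1.81 kb over the members, against 0.860 kb for their annotated main transcripts, and was over 2 times the annotated length in 43 members. For Rpl35a it was 3.68 kb against 0.519 kb, and for Rps12 2.11 kb against 0.584 kb. Counts per annotated kilobase kept Rplp1 and Rpl19 at the top and placed Rps14 next.

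Paralogs were unequal in level. Rpl22, an RNA-binding protein of the large subunit, averaged 263 FPKM over the 12 libraries and its paralog Rpl22l1 averaged 19.0 FPKM. Rps27 averaged 484 FPKM and Rps27l, a paralog known as a p53 target, 825 FPKM. Rpl7 averaged 879 FPKM and Rpl7l1 90.1 FPKM. The paralogs Rpl3l, Rpl39l and Rps4l, below the FPKM minimum, had partners in Rpl3 (821 FPKM), Rpl39 (197 FPKM) and Rps4x (1962.5 FPKM).

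RefSeq promoter sequences (build GRCm38.p6) were matched by symbol for 60 of the 83 genes. On the sense strand, from 10 bases before to 20 bases after an annotated start, CTTTC was present in 14 of the 60 genes, or 23.3%, and in 4.39% of 26965 other genes. CTTTT was present in 8.33% of the members and 3.61% of other genes. A C at an annotated start followed by at least 4 pyrimidines, as in a 5′ TOP motif, was present in 14 of the 60 members (23.3%). The share was 2.96% in other genes. Most members thus showed no such tract at their annotated starts. CCGGAAG, the core of the ETS factor motif, was found on either strand of the 300-base window in 40.0% of members and 9.86% of other genes, and TATAAA, on the sense strand, in 11.7% and 9.77%. These are matches of letters in a window, and binding or translation was not measured. The 30 bases around the first listed start are shown for Rps2, whose test result stands out below, for the paralogs Rps27 and Rps27l, and for 3 members described below. The annotated start is the first base of the second run of 15 bases, and capitals mark CTTTC or CTTTT.
Rps2: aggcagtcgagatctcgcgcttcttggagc
Rps27: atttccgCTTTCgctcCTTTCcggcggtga
Rps27l: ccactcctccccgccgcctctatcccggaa
Rpl7a: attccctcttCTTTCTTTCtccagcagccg
Rpl13a: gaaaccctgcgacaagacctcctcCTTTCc
Rps12: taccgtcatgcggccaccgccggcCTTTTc
The sequences lie at chr17:24720048-24720077 (plus strand) for Rps2, chr3:90213634-90213663 (minus) for Rps27, chr9:66946071-66946100 (plus) for Rps27l, chr2:26910792-26910821 (plus) for Rpl7a, chr7:45128731-45128760 (minus) for Rpl13a and chr10:23787195-23787224 (minus) for Rps12. The pyrimidine runs of Rps27 and Rpl7a hold CTTTC more than once, while the Rps2 and Rps27l windows hold neither pentamer.

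Across libraries the genes mostly moved as a block. Taking each gene's log2 CPM minus its mean over the 12 libraries, the median over the 83 genes was 0.09, 0.07 and -0.07 in mutant IFNα libraries, 0.19, 0.23 and 0.25 in mutant control, -0.45, 0.05 and 0.06 in wild-type IFNα, and 0.08, -0.04 and -0.45 in wild-type control libraries. The 3 mutant control libraries had 80, 82 and 81 of the 83 genes above their own mean, while wild-type IFNα 1 had 1 and wild-type control 3 had 6. The same 2 wild-type libraries were low in other genes too. The 523 other short genes at 100 FPKM or above, within the members' range of deposited transcript length, had medians of -0.27 and -0.16 there. The mitochondrial ribosomal protein genes had -0.29 and -0.23. The length range was wide, with 5043 other tested genes in it. Only members were left out of the set, so rows named as ribosomal protein pseudogenes were not removed, and Rps2-ps10 was among them. The TMM factors of these 2 libraries were 1.13 and 1.10, against 0.955 to 0.997 in the other 10 libraries. Whether a library-wide difference in short or abundant transcripts has a part in the levels of the ribosomal protein genes was not tested, and in these bulk libraries fewer cells and less RNA per cell cannot be told apart.

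**Figure D2:**
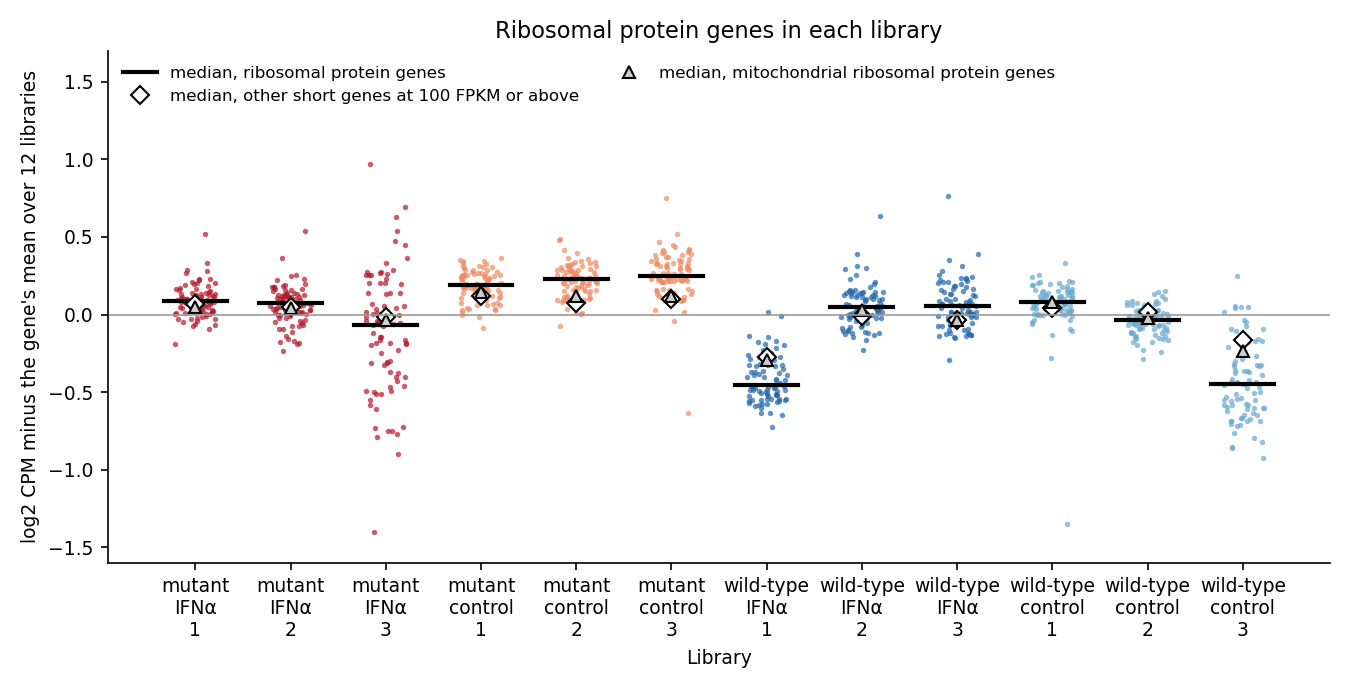
Log2 CPM of each ribosomal protein gene minus its own mean over the 12 libraries (points), with the median of the 83 genes (bar), of 523 other short genes at 100 FPKM or above (diamond) and of the mitochondrial ribosomal protein genes (triangle) in each library. The block sits highest in the 3 mutant control libraries and lowest in wild-type IFNα 1 and wild-type control 3, and its spread is widest in mutant IFNα 3.

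Single genes left the block mainly in 1 library. A distance of at least 0.5 log2 units from the median of the genes occurred for 16 genes in mutant IFNα 3, for 2 in mutant control 3, for 3 in wild-type control 3, and for 1 each in wild-type IFNα 2, wild-type IFNα 3 and wild-type control 1. The SD over genes was 0.3996 log2 units in mutant IFNα 3, against 0.0906 to 0.251 in the other libraries. In mutant IFNα 3, Rps12 stood 1.04 log2 units above the block and Rpl38 0.60 above, while Rpl22l1 stood 1.34 below, Rpl9 0.83 below, Rps14 0.72 below and Rplp1 0.70 below. Rpl27a followed the block most closely, with an SD of 0.0407 log2 units over the 12 libraries, and Rps15 and Rps3 were also among the closest. Rpl22l1 (0.513) and Rpl17 (0.491) followed it least.

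Without IFNα, nearly all ribosomal protein mRNAs had higher values in mutant than in wild-type cells, but no single gene passed the test. The median log2 fold change over the 83 genes was 0.32, against 0.00 over all 17590 genes tested, and 81 of the 83 fold changes were positive, where 50.6% of all genes had a positive one. All 33 small-subunit genes and 48 of the 50 large-subunit genes had positive values. In 56 of the 83 genes every mutant control library lay above every wild-type control library, which held for 12.2% of all genes. At an adjusted p under 0.05 edgeR called 0 of the 83 (0.165% of all genes were called), and 30 had an unadjusted p under 0.05, all with positive fold changes (6.07% of all genes in that direction), a count of 5 to 47 when 1 library was left out. DESeq2 called 3, Rpl17, Rpl35a and Rps2, where it called 1.26% of the genes it gave an adjusted p.

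The size of this difference depended on single wild-type control libraries. Without wild-type control 1, the median was 0.46 and 72 genes did not overlap between the groups (21.6% of all genes with that library left out). An unadjusted p under 0.05 with a positive fold change was then reached by 47 (8.76% of all genes). Without wild-type control 3, the median was 0.20, 76 of the 83 fold changes were positive, 56 genes did not overlap between the groups (16.03% of all genes with that library left out) and 5 had an unadjusted p under 0.05 with a positive fold change (3.57% of all genes). Without that library and wild-type IFNα 1 the median was also 0.20, and 20 had such a p with a positive fold change (4.05% of all genes). Markers of other cells differed between the same groups: the lung list was at 45.4 to 56.6 CPM in mutant control libraries, and at 38.8 CPM in wild-type control 1 and near 0 in wild-type control 2 and 3, and the leukocyte list was at 81.6 to 92.3 CPM in mutant control and 37.1 to 73.3 CPM in wild-type control libraries. With a term for the presence of lung transcripts the median of the ribosomal protein genes was 0.30. Such a term varies only within mutant IFNα (library 3 against the rest) and wild-type control (library 1 against the rest). It therefore cannot separate lung transcripts from other differences of those libraries. The part of the leukocyte markers was not tested. Other short genes at 100 FPKM or above, a set not cleared of rows named as ribosomal protein pseudogenes, were also higher in the mutant. Their median was 0.11 by deposited length and 0.16 by annotated length. In a narrower range of deposited length, 262 such genes had a median of 0.10. The mitochondrial ribosomal protein genes had a median of 0.18. By deposited length, 69.8% of the 523 short genes had a positive fold change, and 82 had an unadjusted p under 0.05 in that direction. Every mutant control library lay above every wild-type control library in 173 of the 523, and in 190 of the 527 by annotated length. Across the 9872 other genes with an annotated length, the log2 fold change was lower in longer genes (Spearman rho of -0.44, a description over genes of the same libraries). Over the 83 members rho was -0.13 by annotated and 0.03 by deposited length. Removing the annotated length trend left a median of 0.17 for the ribosomal protein genes. That was the lowest median of the alternative settings, and the highest was 0.33. The part that transcript length has in the block's difference was not tested further.

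Among the small-subunit genes, Rps2, which lies at the mRNA entry of the ribosome, had 7625, 7914 and 8933 CPM in mutant control libraries and 5626, 6127 and 6081 CPM in wild-type control libraries. The groups did not overlap, and its log2 fold change was 0.46 ± 0.128 (SE, edgeR adjusted p = 0.225). Rps3, which also binds NF-kB, had a log2 fold change of 0.45 ± 0.161, and Rps6, the substrate of S6 kinase, 0.27 ± 0.120. Rps19, the gene most often mutated in human Diamond-Blackfan anaemia, had 0.37 ± 0.213, and Rps27a, made as a fusion with ubiquitin, 0.34 ± 0.198. None of these passed the test, with adjusted p of 0.352 to 0.565.

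The largest values were in the large subunit. Rpl17 had 771, 930 and 1216 CPM in mutant control libraries and 283, 677 and 491 CPM in wild-type control libraries, a log2 fold change of 1.01 ± 0.257 (edgeR adjusted p = 0.169). Its lowest value, in wild-type control 1, stood 1.43 log2 units below the block. Rpl35a had 1606, 1755 and 1788 CPM in mutant control libraries and 1141, 1058 and 660 CPM in wild-type control libraries, which gave 0.85 ± 0.204 on the log2 scale and the lowest adjusted p of the 83 genes (0.139). Rpl31 had 2646, 3070 and 3041 CPM in mutant control libraries and 2288, 2134 and 1267 CPM in wild-type control libraries (log2 fold change of 0.62 ± 0.216, adjusted p = 0.338). For all 3 genes every mutant control library was above every wild-type control library, and without wild-type control 3 and wild-type IFNα 1 the log2 fold changes of Rpl35a and Rpl31 were 0.63 and 0.39.

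Members with known roles off the ribosome followed the block. Rpl5 and Rpl11, which with the 5S ribosomal RNA bind Mdm2 and so restrain the breakdown of p53, had log2 fold changes of 0.32 ± 0.143 and 0.43 ± 0.172. Rpl13a, known from the complex that represses translation in interferon-treated human monocytes, had 9699, 9310 and 9604 CPM in mutant control libraries and 7991, 7532 and 5588 CPM in wild-type control libraries, which do not overlap (0.44 ± 0.212, adjusted p = 0.477). Rpl23 and Rpl26, further binders in the Mdm2 and p53 pathway, had 0.29 ± 0.169 and 0.31 ± 0.223. No paralog passed the test: Rpl22 had 0.53 ± 0.182 and Rpl22l1 0.31 ± 0.361, Rps27 had 0.45 ± 0.219 and Rps27l 0.49 ± 0.187, and Rpl7 had 0.20 ± 0.222 and Rpl7l1 0.31 ± 0.126. The genes least in step were Rpl7a (-0.10 ± 0.200), Rplp0 (-0.01 ± 0.108) and Rpl10 (0.04 ± 0.180).

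Between the genotypes with IFNα, Rps2 was higher in mutant than in wild-type cells, and edgeR called no other ribosomal protein gene. It had 7846, 9935 and 7848 CPM in mutant IFNα libraries and 4689, 5831 and 5589 CPM in wild-type IFNα libraries, which do not overlap, a log2 fold change of 0.67 ± 0.128 (edgeR adjusted p = 0.0316). This was 1 of 83 members called, where 0.597% of all genes were called, 0.472% as higher. On the FPKM scale Rps2 averaged 4362 ± 696 in mutant IFNα and 2906 ± 132 in wild-type IFNα libraries (SD, n = 3 each). Of the rows named as Rps2 pseudogenes, 4 also passed the test in this comparison: Rps2-ps10 (log2 fold change of 0.86 ± 0.122), Rps2-ps13 (0.94 ± 0.149), Rps2-ps6 (0.96 ± 0.157) and Rps2-ps8 (1.24 ± 0.243). The 10 pseudogene rows held 3.91% of the count of Rps2 itself, and 58.5% of the 100-base windows of its main transcript also occur in transcripts of 36 other genes, so reads of the gene and its copies may have been divided between rows.

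The edgeR call of Rps2 was close to the threshold. Rps2 was called in 9 of 15 alternative settings and in 3 of 12 edgeR fits that left out 1 library. Its adjusted p was 0.0265, 0.0391 and 0.0414 without mutant IFNα 3, wild-type control 1 or wild-type control 3, and 0.0547 to 0.129 without any other single library, with log2 fold changes of 0.55 to 0.73 throughout. It was 0.0949 with a term for the lung transcripts and 0.109 without wild-type IFNα 1 and wild-type control 3. The difference between the genotypes' Rps2 was 0.46 without and 0.67 with IFNα, and the test of the change between them gave 0.21 ± 0.181 (adjusted p = 0.920).

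The other members showed little common movement here. The median log2 fold change was 0.08 over the 83 genes and -0.01 over all genes, 61 of the 83 were positive (48.5% of all genes), and 9 had an unadjusted p under 0.05, all positive (7.56% of all genes in that direction; 3 to 14 members when 1 library was left out). In 14 genes the mutant IFNα libraries lay above all wild-type IFNα libraries (9.89% of all genes), and in 1, Rpl4, they lay below (8.52% of all genes). The 523 other short genes at 100 FPKM or above, Rps2-ps10 among them, had a median of 0.13, with 73.2% positive. Of these, 106 had an unadjusted p under 0.05 with a positive and 9 with a negative fold change. Without overlap, 133 of them lay above and 8 below. Besides Rps2 the largest values were Rps12 (0.62 ± 0.248, adjusted p = 0.283) and Rpl35a (0.47 ± 0.203, adjusted p = 0.330), and the lowest were Rpl22l1 (-0.62 ± 0.362), Rpl23a (-0.26 ± 0.215) and Rpl7 (-0.23 ± 0.222). Rps12 rested on mutant IFNα 3, with 979, 1243 and 2186 CPM in mutant IFNα libraries and 775, 1054 and 1044 CPM in wild-type IFNα libraries. The sign of the median also rested on 1 library: without wild-type IFNα 1 it was -0.06, 34 of the 83 fold changes were positive and 16 genes lay below all remaining wild-type IFNα libraries (14.1% of all genes with that library left out), and without that library and wild-type control 3 it was -0.08. Without mutant IFNα 3, 33 genes lay above, as did 16.6% of all genes.

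**Figure D3:**
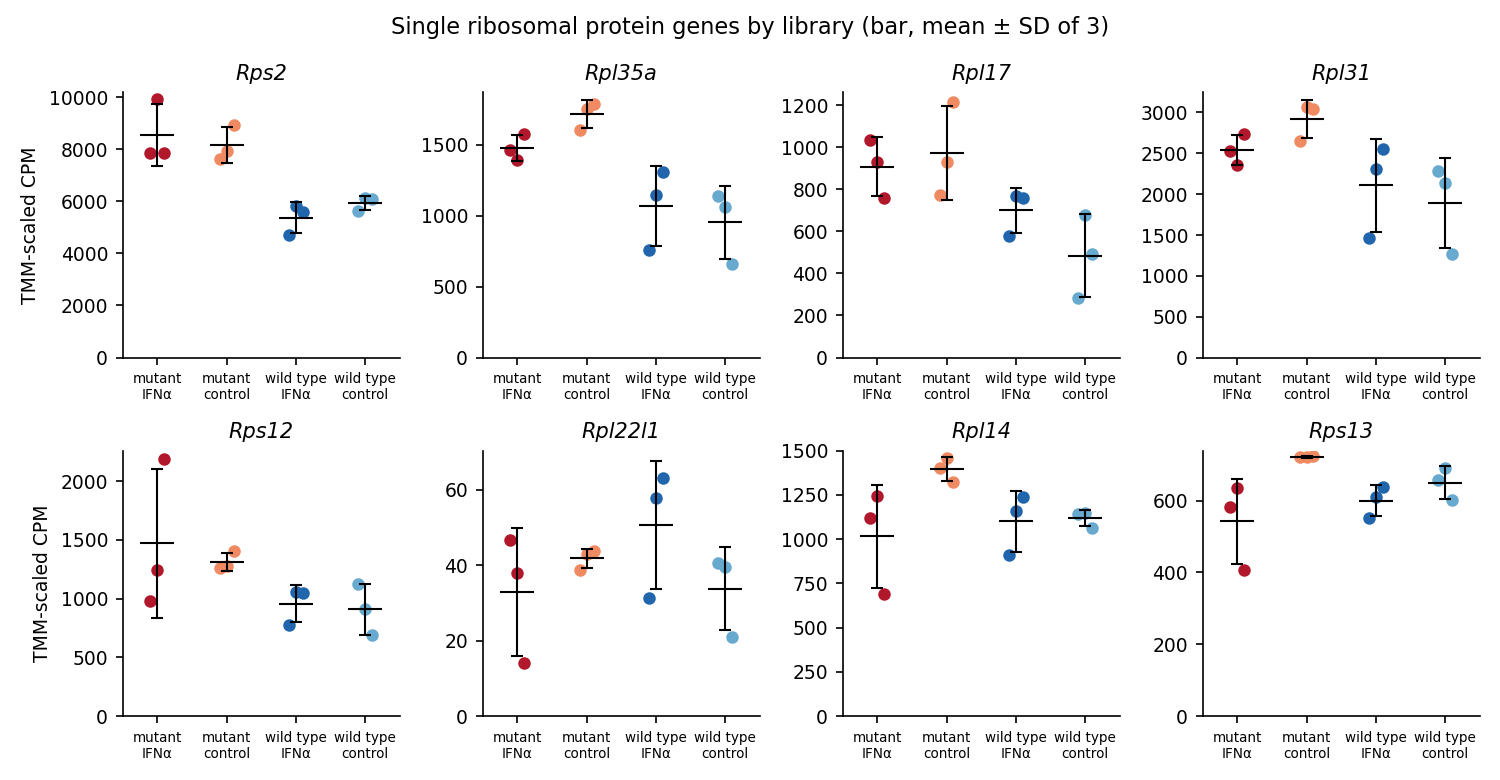
TMM-scaled CPM of 8 ribosomal protein genes in each library (points) with the mean ± SD of the 3 libraries of each group, on axes that start at 0. Rps2 lies higher in both mutant groups than in both wild-type groups, while Rps12 in mutant IFNα and Rpl17 in wild-type control are spread by single libraries.

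Within the mutant, most ribosomal protein mRNAs had lower values with IFNα than in control libraries, again with no gene past the test. The median log2 fold change was -0.20 over the 83 genes and -0.01 over all genes, and 73 of the 83 were negative, as were 50.7% of all genes. In 41 genes every mutant IFNα library lay below every mutant control library, as in 9.74% of all genes. Of the 83, edgeR called 0 (0.00569% of all genes were called), DESeq2 called 0 (0.952% of all genes), and 5 had an unadjusted p under 0.05, all lower (4.62% of all genes in that direction), a count of 1 to 12 when 1 library was left out and 26 without wild-type IFNα 1 and wild-type control 3 (5.47% of all genes). Without mutant IFNα 3, the library in which single genes left the block, the median was -0.15, 73 were still negative and 56 did not overlap, against 16.3% of all genes with that library left out. The other short genes at 100 FPKM or above had a median of -0.06, and the mitochondrial ribosomal protein genes -0.09. Of the 523 other short genes, 307 had a negative fold change and 126 lay below without overlap. An unadjusted p under 0.05 was reached by 42 of them with a negative and 23 with a positive fold change. The summed markers of other cells differed too: the lung list summed to 0.0424, 0 and 60.9 CPM in mutant IFNα and 45.4 to 56.6 CPM in mutant control libraries, the leukocyte list to 39.0 to 58.7 CPM in mutant IFNα and 81.6 to 92.3 CPM in mutant control libraries, and the erythroid list to 0 to 8.92 CPM in mutant IFNα and 8.71 to 26.7 CPM in mutant control libraries. Mutant IFNα 3 had the highest lung value of the 12 libraries. With the term for the lung transcripts, under the limit given above, the median was -0.14. The part of the leukocyte and erythroid markers was not tested.

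Rps13, of the small subunit, had 583, 635 and 408 CPM in mutant IFNα libraries and 720.5, 720.5 and 723.6 CPM in mutant control libraries, a log2 fold change of -0.41 ± 0.143 (edgeR adjusted p = 0.381, the smallest of the 83). Rpl14, of the large subunit, had 1117, 1246 and 690 CPM in mutant IFNα libraries and 1404, 1458 and 1324 CPM in mutant control libraries (-0.46 ± 0.180, adjusted p = 0.427). Both groups were without overlap, and in each gene mutant IFNα 3 was the lowest of the 12 libraries. Without that library the log2 fold changes were -0.24 for Rps13 and -0.24 for Rpl14. The row named as an Rpl14 pseudogene was highest in mutant IFNα 3, at 813 CPM. With pseudogene rows added to their gene, the log2 fold change of Rpl14 was -0.35. Rps19 (-0.43 ± 0.213) and Rps14 (-0.42 ± 0.267) were the other most negative values. Rps2 (0.07 ± 0.128), Rps12 (0.16 ± 0.247) and Rps3a3 (0.17 ± 0.217) were the most positive. Rpl13a had 8915, 8355 and 5206 CPM in mutant IFNα and 9699, 9310 and 9604 CPM in mutant control libraries (-0.35 ± 0.212, adjusted p = 0.589).

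Within the wild type, the ribosomal protein genes had fold changes with IFNα on both sides of 0 and none passed the test. The median log2 fold change was 0.03 over the 83 genes and 0.02 over all genes, 50 of the 83 were positive (52.9% of all genes), and edgeR and DESeq2 each called 0 (0.0227% of all genes were called by edgeR and 0.387% by DESeq2). An unadjusted p under 0.05 was also reached by 0, where 2.68% of all genes reached it with a positive and 2.76% with a negative fold change. When 1 library was left out that count was 0 to 4, with 4 positive without wild-type IFNα 1 (2.27% of all genes in that direction). The wild-type IFNα libraries lay below all wild-type control libraries in 3 genes, Rplp0, Rpl8 and Rpl10, as in 6.48% of all genes. Rplp0 had 4955, 5905 and 5604 CPM in wild-type IFNα libraries and 6103, 6418 and 6308 CPM in wild-type control libraries (-0.19 ± 0.108, adjusted p = 0.974). The most negative values besides it were Rpl6l (-0.20 ± 0.164) and Rps29 (-0.18 ± 0.167), and the most positive were Rpl22l1 (0.59 ± 0.361), Rpl17 (0.53 ± 0.255) and Rpl22 (0.23 ± 0.182). Each group held 1 of the 2 low libraries: the median was 0.17, with 64 positive genes, without wild-type IFNα 1, and -0.11, with 9 positive genes, without wild-type control 3. Without wild-type IFNα 2 or wild-type IFNα 3, 26 and 22 were positive.

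**Figure D4:**
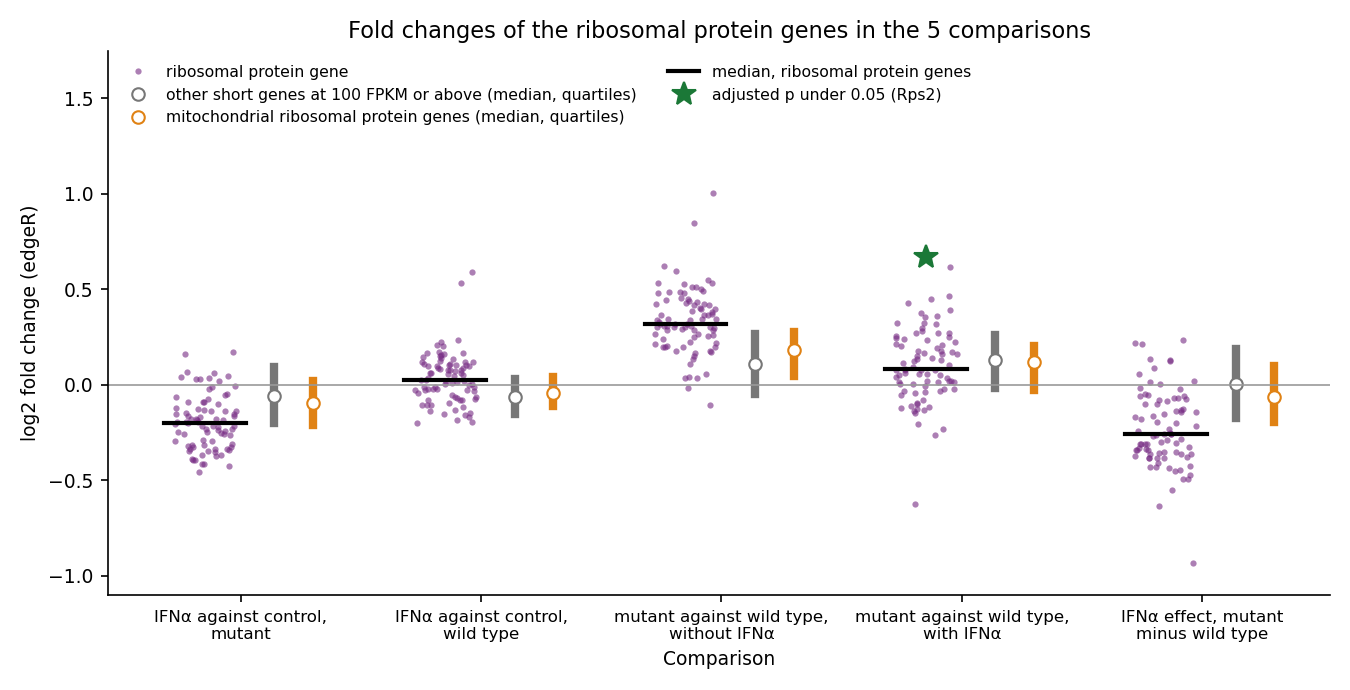
edgeR log2 fold change of each ribosomal protein gene (points, with the median as a bar) in the 5 comparisons, beside the median and quartiles of 523 other short genes at 100 FPKM or above and of the mitochondrial ribosomal protein genes. The points lie mostly above 0 for mutant against wild type without IFNα and mostly below 0 for IFNα in the mutant, and the star marks Rps2.

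The IFNα effect in the mutant minus that in the wild type was negative in 72 of the 83 genes, with a median of -0.26 against -0.02 over all genes, of which 52.3% were negative. Of the 83, edgeR called 0 for this difference (0% of all genes) and DESeq2 called 0 (0.0604% of all genes). An unadjusted p under 0.05 was reached by 0, where 2.75% of all genes reached it with a positive and 2.42% with a negative value. That count was 0 to 15, all negative, when 1 library was left out. It was 15 without wild-type IFNα 1 (3.01% of all genes in that direction) and 14 without that library and wild-type control 3 (2.66%). The comparison shares its libraries with the 4 above, and the median was -0.12 without wild-type control 3 and -0.12 with a term for the lung transcripts. The lowest values were Rpl22l1 (-0.93 ± 0.511), Rpl17 (-0.63 ± 0.360) and Rpl23a (-0.55 ± 0.304), and the highest Rplp0 (0.24 ± 0.153), Rpl8 (0.22 ± 0.151) and Rps2 (0.21 ± 0.181). Rpl22l1 had 46.8, 37.9 and 14.1 CPM in mutant IFNα libraries, 38.8, 42.9 and 43.7 CPM in mutant control, 31.3, 57.7 and 63.1 CPM in wild-type IFNα, and 40.6, 39.5 and 21.03 CPM in wild-type control libraries. Its groups overlap in all 4 comparisons of libraries.

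Rows for named pseudogenes move some of these values. The table holds 219 such rows for 56 of the 83 genes, with 0.637% to 1.04% of the counts of a library, and for 9 genes they summed to over 30% of the gene's own count: Rpl21 (221%), Rpl17 (91.0%), Rps10 (55.5%), Rps12 (54.1%), Rpl14 (52.5%), Rpl7a (39.0%), Rps7 (37.2%), Rpl9 (31.4%) and Rpl34 (30.3%). In 27 genes over 50% of the 100-base windows of the main transcript were also found in transcripts of other genes, while 6 genes, Rpl22 among them, shared no window. How the authors assigned reads that match several places is not given in the sources used here.

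Rpl17 and its pseudogene rows moved in opposite directions in single libraries, and whether reads were divided between them was not tested. In wild-type control 1 the gene itself had 283 CPM and its 7 pseudogene rows 1131 CPM, and in the other wild-type control libraries the gene had 677 and 491 CPM and the rows 577 and 573 CPM. The sum was 1414, 1254 and 1065 CPM, so wild-type control 1, the lowest for the gene, was the highest of its group for the sum. A single row, Rpl17-ps10, held 730.1 CPM there. In mutant IFNα 3 the gene had 758 CPM and the rows 1162 CPM, against 1036 and 931 CPM for the gene and 415 and 553 CPM for the rows in the other mutant IFNα libraries. With pseudogene rows added to their gene, the log2 fold change of Rpl17 between mutant and wild type without IFNα was 0.42 in place of 1.01.

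Rpl7a, a large-subunit protein, had its lowest value of 755 CPM in mutant control 3, where its pseudogene rows were highest at 698 CPM. The sum of 1453 CPM there was still below the 1755 and 1849 CPM of the other mutant control libraries. Rps12 differed from both: in mutant IFNα 3 the gene (2186 CPM) and its rows (831 CPM) were each the highest of the 12 libraries. Rps2 and its rows were higher in both mutant groups than in both wild-type groups in every library.

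**Figure D5:**
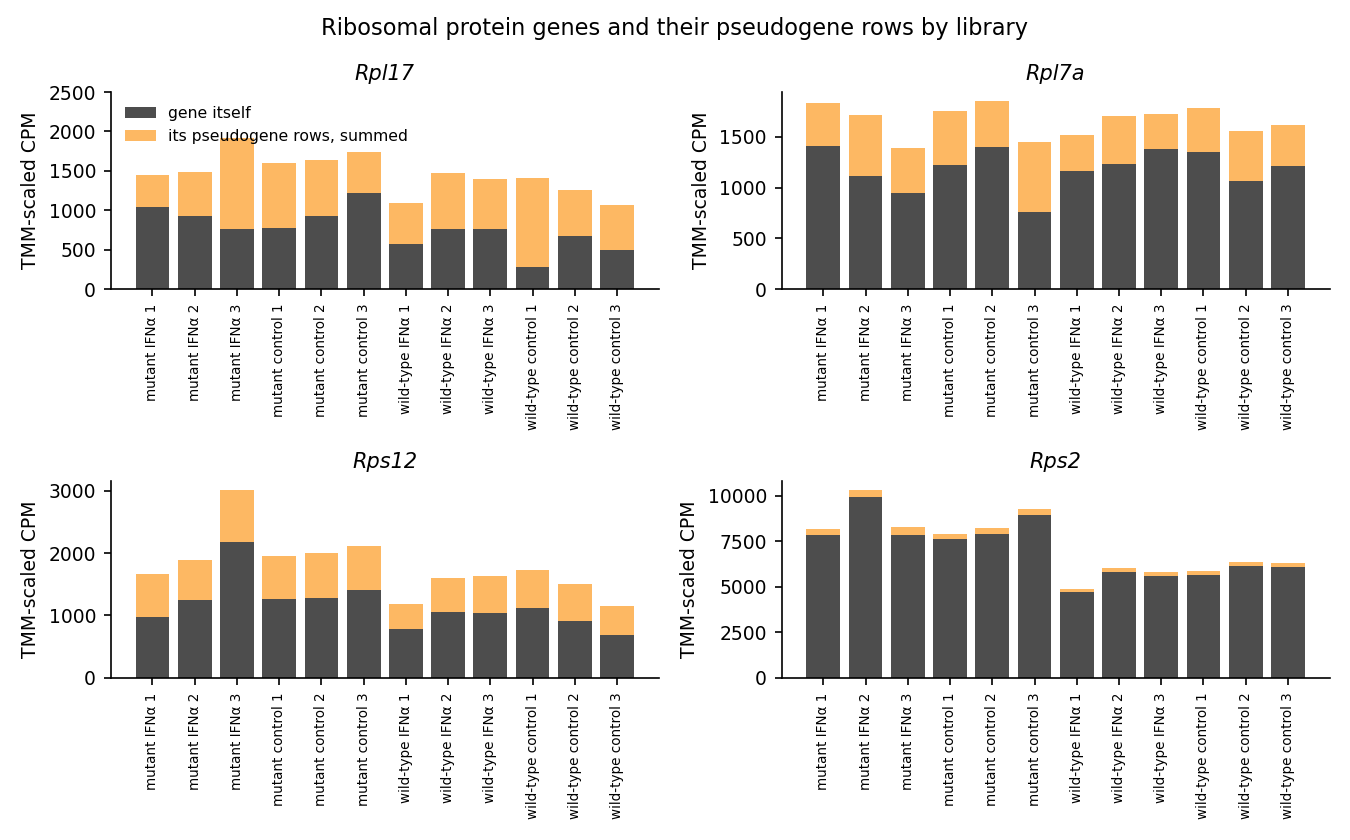
TMM-scaled CPM of Rpl17, Rpl7a, Rps12 and Rps2 (dark) with the summed CPM of the rows named as their pseudogenes stacked on top (light) in each of the 12 libraries. In wild-type control 1 most of the Rpl17 bar belongs to pseudogene rows, while the Rps2 bars belong almost wholly to the gene.

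Ribosomal proteins whose symbols do not follow the pattern were measured beside the members. Of 6 such genes tested, 0 passed in any of the 5 comparisons, and their median log2 fold change between mutant and wild type was 0.31 without IFNα and 0.42 with IFNα, all 6 positive in each. Rack1, a signalling scaffold on the small subunit, averaged 1416 FPKM in mutant IFNα and 1011 FPKM in wild-type IFNα libraries (log2 fold change of 0.58 ± 0.133, edgeR adjusted p = 0.0698). Rpsa, a small-subunit protein also known as a laminin receptor, averaged 3487 FPKM and 2667 FPKM in the same groups (0.48 ± 0.136, adjusted p = 0.134). Fau, made as a fusion with a ubiquitin-like protein, had 0.34 ± 0.149 between mutant and wild type without IFNα.

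The wider machinery of ribosome production gave no called gene in any of the 5 comparisons. The 19 elongation factors and other 5′ TOP mRNAs had medians of 0.09 between mutant and wild type without IFNα and -0.05 with IFNα. Among them Eef1b2, an exchange factor of elongation, had 0.55 ± 0.125 without IFNα (edgeR adjusted p = 0.123), and Nap1l1, a histone chaperone, had -0.45 ± 0.105 with IFNα (adjusted p = 0.0699). The 13 genes of RNA polymerase I and its factors had medians of 0.06 without and 0.01 with IFNα, and the lowest p were those of Polr1a, its largest subunit (-0.40 ± 0.127 between the genotypes without IFNα), and Polr1d (-0.28 ± 0.135 for IFNα in the mutant). The 53 ribosome assembly factors had -0.02 and -0.04, with Imp4 at 0.44 ± 0.117 and Rpf1 at -0.52 ± 0.142 with IFNα as the smallest p. The 22 genes of Myc and mTORC1 control had -0.06 and 0.05, and the 12 genes of the p53 response 0.05 and 0.14. Among these Eif4ebp1, a repressor of translation that mTORC1 inactivates, had 0.30 ± 0.0984 between the genotypes with IFNα, and its paralog Eif4ebp2 had 0.38 ± 0.129 for IFNα in the mutant. The p53 targets Bbc3, which promotes cell death, and Phlda3 had 0.54 ± 0.163 and 0.34 ± 0.135 between the genotypes with IFNα.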

How the data were processed

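RNA from 12 libraries was sequenced by the authors, and sample labels gave each library's group and replicate number. Per the submitters' processing notes the build was GRCm38 and the tools included HISAT2 2.0.4 and StringTie 1.3.4d. Also named were cutadapt 1.9, UMI-tools, DESeq2 and edgeR, with no role stated. The authors deposited, per the file headers, a whole-number count and an FPKM for each gene and library. Multiples of 4 made up 33.6% of the counts between 1 and 30 but are 23.3% of those whole numbers, so a count may not be 1 fragment. Deposited gene coordinates differ from those of GRCm38 (Rps2 begins at 24937090 on chromosome 17 as deposited), so they were not joined to RefSeq coordinates.

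Counts were tested with edgeR 4.0.16 in R 4.3.3: TMM scaling, its default filter (17590 genes), 1 quasi-likelihood fit of 4 group means over all 12 libraries, Benjamini-Hochberg adjustment over all genes and a threshold of 0.05. DESeq2 1.42.0 and limma 3.58.1, on log2(FPKM + 1), were alternatives. The scripts were tested on simulated data. Other short genes lay between the 5th and 95th percentiles of the members' length, a wide range that held 5043 other tested genes by deposited length.

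The members and gene lists were chosen with earlier results of these data known. Genes named were those past the threshold, the 3 highest and 3 lowest fold changes in each comparison, paralogs, the stalk, members with other known roles, the 3 highest and lowest levels, and in each list the 2 smallest p. Further genes in the paragraphs on single libraries and pseudogene rows (Rpl9, Rpl38, Rps13, Rpl4, Rpl27a and Rps15 among them) were chosen after their values were seen. Results of some single genes are not reported here.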

Additional observations from a re-analysis of the deposited data

How the results depend on the processing

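The number of ribosomal protein genes called between mutant and wild type without IFNα was 0 with edgeR, 3 with DESeq2 and 1 (Rpl17) with a term for the lung transcripts. With IFNα it was 1 with edgeR and 0 without the count filter, with limma on log2(FPKM + 1), on log2(FPKM + 0.1) or on quantile-normalized values, and without the pair wild-type IFNα 1 and wild-type control 3; leaving out 1 library gave 0 to 1. With the lung term, which within the mutant IFNα group sets library 3 apart, the 1 gene called was Rps12, not Rps2. The other comparisons gave 0 under every alternative run. The median log2 fold changes moved by less than 0.206, the SD of library medians between replicates, and no called value changed sign. That margin is wide. It exceeds in size the main medians for IFNα in the mutant (-0.20) and in the wild type (0.03). The median between the genotypes with IFNα (0.08) is smaller too. Medians for IFNα in the wild type and between the genotypes with IFNα changed sign in some settings. Leaving out 1 library gave medians of -0.24 to -0.15 for IFNα in the mutant, -0.11 to 0.17 in the wild type, 0.20 to 0.46 between the genotypes without IFNα, -0.06 to 0.18 between them with IFNα, and -0.36 to -0.12 for the difference of the IFNα effects. With the lung term that difference had a median of -0.12, against -0.26. The median with IFNα was -0.04 on quantile-normalized values, and log2(FPKM + 0.1) shifted the median of all genes by -0.11 in both genotype comparisons. Over all genes edgeR called 1, 4, 29, 105 and 0 in the 5 comparisons, and DESeq2 175, 69, 232, 632 and 14.

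Replicate numbers did not pair the libraries: 8 of 18 same-number pairs had a correlation of deviations over 0.1, and 3 of 12 libraries correlated best with their own number. A fit with the replicate number as a block called 0, 0, 0, 1 and 0 members in the 5 comparisons (0, 2, 17, 59 and 0 of all genes), with medians of -0.20, 0.04, 0.33, 0.08 and -0.27. The pair of libraries left out, the annotated length trend and the added pseudogene rows were chosen after seeing the data.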
